A study of Mus musculus with 6 samples.

Results

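The mitochondrial ribosomal protein genes are the nuclear genes for the proteins of the ribosome that works inside mitochondria. They were taken from the expression table of MCA205 tumors as every protein-coding gene whose mouse symbol starts with Mrpl or Mrps followed by a number. This gave 78 of the 54309 gene identifiers in the table, of which 21783 are protein coding. Of the 78 genes, 51 belong to the large subunit and 26 to the small subunit. The remaining gene, *Mrps36*, was once counted with the small subunit and is now assigned to the 2-oxoglutarate dehydrogenase complex. MCA205 is a fibrosarcoma cell line of C57BL/6 origin. Female C57BL/6J mice aged 7 weeks were given MCA205 cells under the skin of the right flank, and tumors were collected on day 8. From day 1 the mice drank water with 0.1 mg/mL FF-10101 (n = 3) or received no FF-10101 (control, n = 3). FF-10101 is a covalent inhibitor of the receptor tyrosine kinases FLT3 and CSF1R. CSF1R carries the survival signal of macrophages. RNA came from whole tumors, so each value sums over tumor cells, macrophages, and all other cells present.

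Mitochondria keep a small genome of their own, which encodes the RNAs of the mitochondrial ribosome and a few membrane proteins of the respiratory chain. All proteins of that ribosome are encoded in the nucleus, made in the cytoplasm, and imported. The large subunit holds the peptidyl transferase center and the small subunit reads the codons. Some of the proteins have counterparts in bacterial ribosomes and others exist only in mitochondria. The ribosome is built in an RNA granule with the help of GTPases, helicases, and rRNA-modifying enzymes, and cells that grow and divide need much of it.

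All 78 genes had enough reads to be tested. Total reads per tumor were 9143806 to 9643535 in the controls and 9277019 to 13258258 after FF-10101. Values below are normalized counts, that is, reads scaled for the depth of each tumor. The members held 65 to 2577 reads per tumor, and their mean normalized counts ran from 87.8 to 1410 with a median of 475. Control tumor 1 and treated tumor 1 stood apart in some measures. Control tumor 1 had a weight of 0.139 when limma estimated a quality weight for each tumor, the lowest of the 6, and the calls of named members that change without it are given both ways. Its tissue markers also differed from those of the other controls. The summed level of 8 mesenchymal and fibrosarcoma markers, which include *Col1a1* and *Vim*, was 248454 normalized counts in control tumor 1, 122822 and 98852 in control tumors 2 and 3, and 189747 to 282942 after FF-10101. All 8 markers had at least 660.0 normalized counts in each tumor, while the 3 B cell markers summed to 5.63 to 32.6 normalized counts. Treated tumor 1 had the highest sum of 4 keratinocyte markers, 919 normalized counts beside 19.6 to 169 in the other tumors, with *Krt5* and *Krt14* at 0 in 4 tumors, and it had the lowest sum of macrophage markers. Without treated tumor 1 the members' median log2 fold change was -0.48 in place of -0.37, and 0 members passed an adjusted p of 0.05 in limma. In that setting 32 members were lower at an unadjusted p under 0.05, beside 1177 of all 13963 genes tested.

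With FF-10101 the mitochondrial ribosomal protein genes were lower as a group, by a modest amount, and no single one passed the test. The median log2 fold change over the 78 genes was -0.37, which is 1.30-fold lower, beside a median of 0.02 over the 13963 genes tested. The log2 fold change was negative in 75 of the 78 (96.2%; 74 when scaled to total reads), against 48.1% of all genes tested. At an adjusted p of 0.05 limma called 0 members and 6 genes in all (0.043%), and limma-voom called 0 members and 5 genes. At an unadjusted p of 0.05 limma counted 24 members as lower and 0 as higher, where 7.49% of all genes were lower and 8.77% higher, and limma-voom also counted 24. The count of 24 became 16 with scaling to total reads, 8 with the replicate number as a block, and 43 without control tumor 1. Leaving out control tumor 2 or 3 gave 10 and 7 members, and leaving out treated tumor 2 or 3 gave 9 and 5. The count of lower genes over all 13963 also moved, from 1046 to 845 with scaling to total reads and to 2401 without control tumor 1. In 22 members (28.2%) every FF-10101–treated tumor lay below every control tumor, against 9.37% of all genes. In 0 members did every treated tumor lie above every control, against 10.9% of all genes. The adjusted p-values of the members ran from 0.175 to 0.985. In bulk tissue, fewer cells that express these genes and less RNA per cell cannot be told apart.

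**Figure D1:**
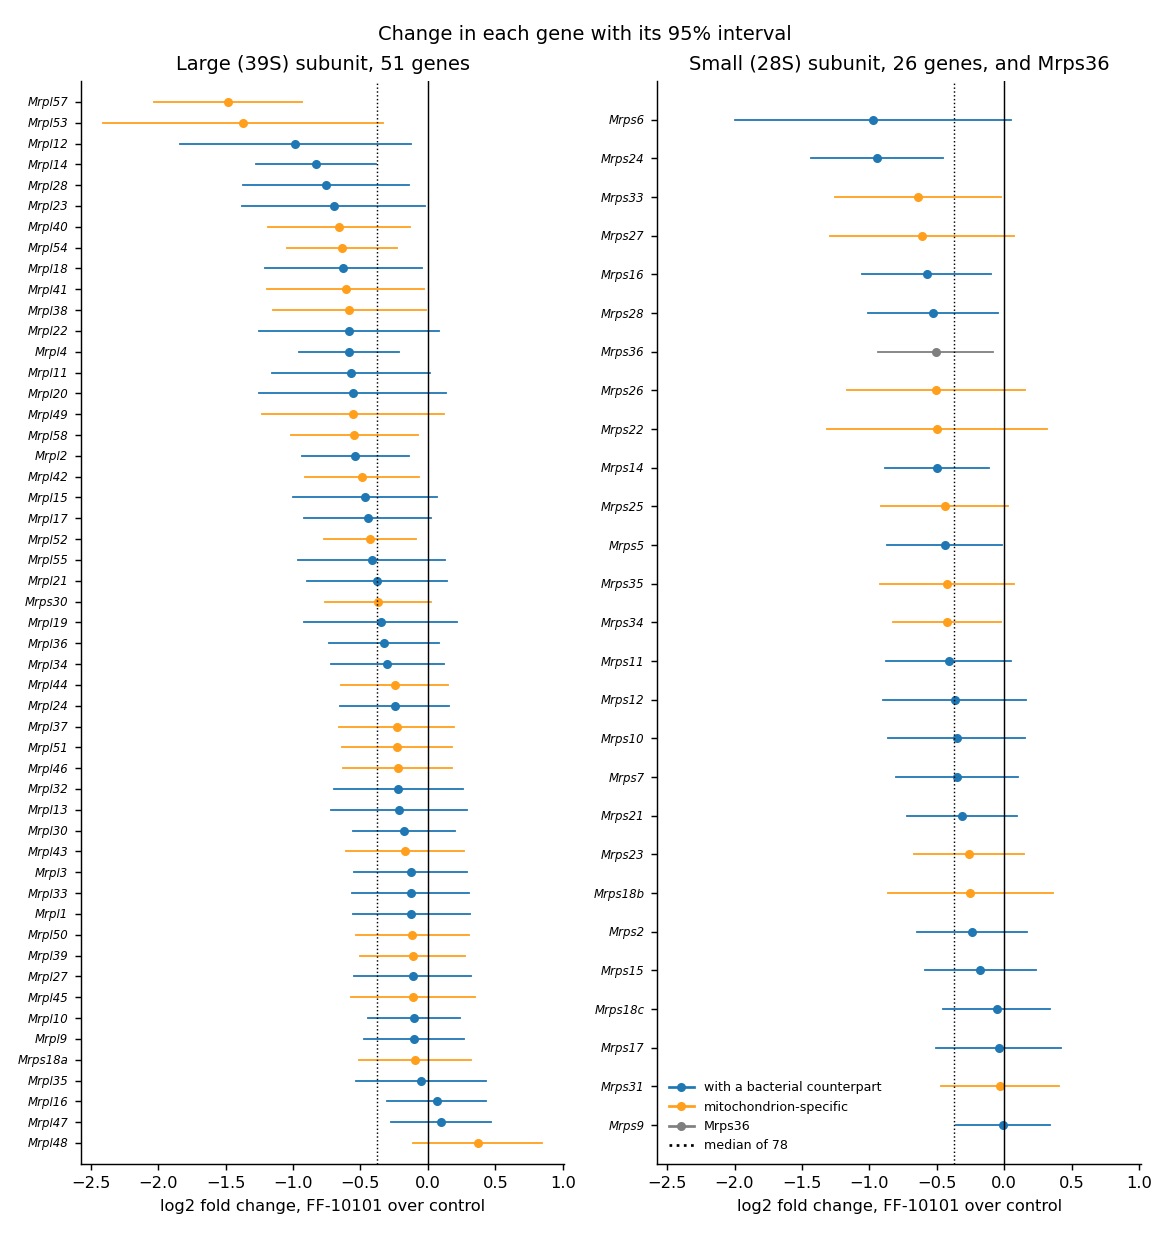
The log2 fold change of each of the 78 genes (FF-10101 over control, n = 3 tumors per group) with its 95% confidence interval from limma, for the large subunit (left) and the small subunit with *Mrps36* (right), in blue with and in orange without a bacterial counterpart. Points lie left of 0 for 75 genes, the dotted line marks the median of -0.37, and the interval excludes 0 for 24 genes, all of them lower.

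*Mrpl57* (ENSMUSG00000021967), a mitochondrion-specific protein of the large subunit, had the largest difference and the smallest p of the family. Its level was 409, 467, and 618 normalized counts in control tumors 1, 2, and 3 and 217, 182, and 136 in FF-10101–treated tumors 1, 2, and 3. The groups did not overlap, and the lowest control was above the highest treated tumor by a wide margin. The log2 fold change was -1.48 ± 0.24 (SE), with an adjusted p of 0.175 by limma. *Mrpl53* (ENSMUSG00000030037), another mitochondrion-specific protein of the large subunit, was at 203, 402, and 795 in the controls and at 182, 167, and 122 after treatment. The groups did not overlap, but control tumor 1 was close to treated tumor 1. Its log2 fold change was -1.37 ± 0.45, with an adjusted p of 0.242. These were the only members more than 2-fold lower, where 1.98% of all genes were. *Mrpl12* (ENSMUSG00000039640) forms the stalk that recruits translation factors and also binds the mitochondrial RNA polymerase. It was at 939, 1989, and 2859 normalized counts in the controls and at 1019.6, 905, and 749 after treatment. Control tumor 1 lay among the treated tumors, and the log2 fold change of -0.98 ± 0.37 had an adjusted p of 0.273. *Mrps6*, which has a bacterial counterpart in the small subunit, showed the same arrangement. It was at 329.8, 856, and 1128 in the controls and at 493, 289, and 293 after treatment, with a log2 fold change of -0.98 ± 0.44 and an adjusted p of 0.324.

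**Figure D2:**
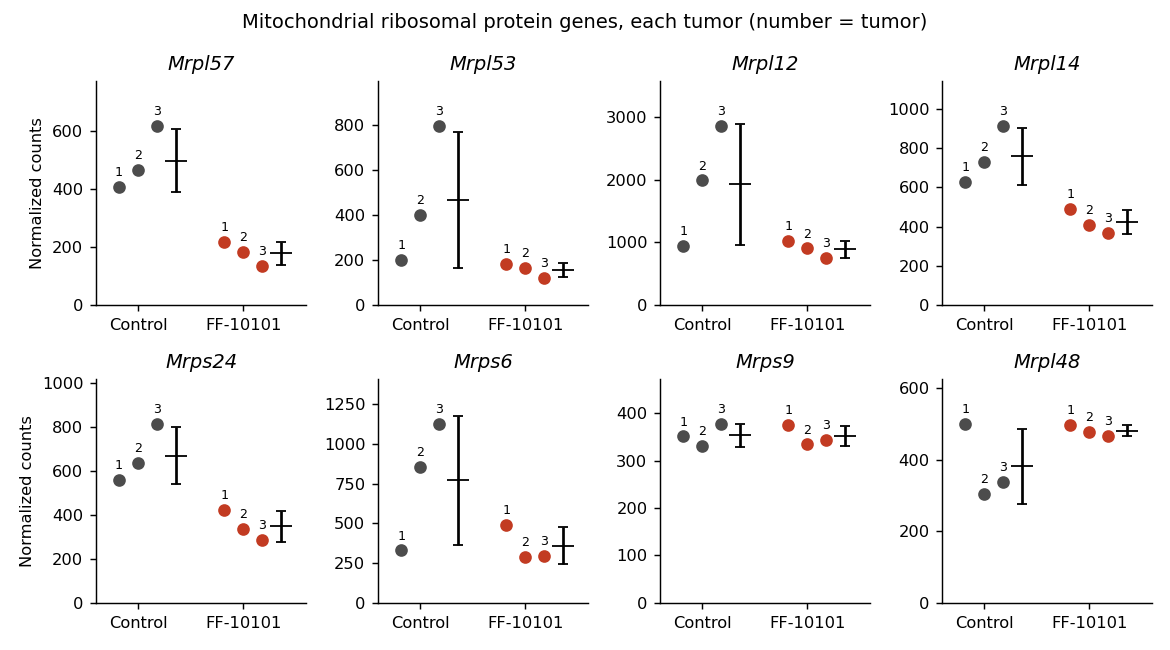
Normalized counts of 8 mitochondrial ribosomal protein genes in each tumor, where the number beside a point is the tumor and the bar gives mean ± SD (n = 3). *Mrpl57*, *Mrpl53*, *Mrpl14*, and *Mrps24* do not overlap between groups, control tumor 1 lies within the treated range for *Mrpl12* and *Mrps6*, *Mrps9* is level, and *Mrpl48* is the highest member by fold change.

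The members with the next smallest p-values were *Mrps24* of the small subunit and otherwise genes of the large subunit. *Mrps24* (ENSMUSG00000020477) has a bacterial counterpart that lines the path by which mRNA enters the small subunit. It was at 558, 635, and 814 in the controls and at 422, 334, and 286 after treatment. The groups did not overlap, and the log2 fold change was -0.94 ± 0.21 with an adjusted p of 0.229. *Mrpl14* (ENSMUSG00000023939), at the subunit interface of the large subunit, was at 629, 730.3, and 913 in the controls and at 492, 408, and 369 after treatment. Its groups did not overlap either, with a log2 fold change of -0.83 ± 0.19 and an adjusted p of 0.229. *Mrpl54*, *Mrpl4*, and *Mrpl2*, all of the large subunit, completed the 6 smallest p-values. Their log2 fold changes were -0.64, -0.58, and -0.54, and none of them overlapped between groups. *Mrpl2* is the counterpart of a bacterial protein next to the peptidyl transferase center. It was at 724, 769, and 955 in the controls and at 635, 549, and 498 after treatment.

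The low weight and differing markers of control tumor 1 came from these same expression values, so leaving it out is no independent check. Leaving out any other single tumor gave 0 members past an adjusted p of 0.05 in limma. Without control tumor 1, more of the family passed the test. The median log2 fold change was -0.48, limma called 27 members lower and 1 higher at an adjusted p of 0.05, and 34.6% of the members were thus lower against 9.88% of all genes, with 12% of all genes higher. Of these 28 members, 15 overlapped between the groups when all 6 tumors were counted. *Mrpl12* had the smallest adjusted p, 0.00371, with a log2 fold change of -1.43. *Mrpl57* followed at -1.61 (adjusted p = 0.00433) and *Mrpl53* at -1.86 (adjusted p = 0.00626). *Mrps6* was at -1.50 (adjusted p = 0.00738), *Mrpl14* at -0.96 (adjusted p = 0.00995), and *Mrps24* at -1.06 (adjusted p = 0.0109). The adjusted p-values of *Mrpl54*, *Mrpl4*, *Mrpl2*, *Mrpl58*, *Mrpl11*, *Mrpl52*, and *Mrpl23* were 0.0247, 0.0479, 0.0337, 0.033, 0.0252, 0.0481, and 0.023, all of them lower. *Mrps22*, a mitochondrion-specific protein of the small subunit, was at 386 and 374 in control tumors 2 and 3, at 151 in control tumor 1, and at 188, 191, and 213 after treatment. Its adjusted p by limma was 0.503 with all tumors and 0.00698 without control tumor 1. The member called higher was *Mrpl48*. With limma's quality weights 50 members were called lower and 1 higher, where 27.9% of all genes were lower and 32% higher. Without control tumor 1 and with trends on transcript length and GC content removed, 33 members were lower and 1 higher, where 15.2% of all genes were lower and 10.5% higher.

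The median log2 fold change was -0.35 over the 51 large-subunit genes, of which 48 were lower, and -0.42 over the 26 small-subunit genes, all of them lower (25 when scaled to total reads). Groups did not overlap in 14 and 7 of these, respectively, where 9.37% of all genes did not overlap as lower. The 46 proteins with bacterial counterparts had a median of -0.35 and the 31 mitochondrion-specific proteins one of -0.43. *Mrps36*, which is not part of the ribosome, was at 285, 308, and 332 in the controls and at 257, 187, and 209.8 after treatment. Its groups did not overlap, and its log2 fold change was -0.51 ± 0.18 with an adjusted p of 0.259. Members have shorter transcripts than most genes, with a median of 1224.5 bases beside 2722 for the protein-coding genes tested, and the proteins run from 65 to 442 residues. The median log2 fold change was -0.43 over the 39 members with the shorter transcripts and -0.26 over the 39 with the longer ones. Neither the difference between subunits nor that between transcript lengths was tested. After a trend on length and GC content was removed from each tumor, 70 members were lower, with a median of -0.32 beside -0.07 over all genes.

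Members with a known part of their own spanned much of the range. *Mrpl58*, which carries the motif of a peptidyl-tRNA hydrolase and frees stalled ribosomes, was at 499, 576, and 783 in the controls and at 474, 376, and 404 after treatment. The groups did not overlap, with a log2 fold change of -0.55 ± 0.20 and an adjusted p of 0.268. *Mrpl11* and *Mrpl10*, proteins at the base of the stalk that holds *Mrpl12*, differed in size, at -0.57 ± 0.25 and -0.10 ± 0.15. *Mrps5*, next to the mRNA entry of the small subunit, did not overlap between groups and was at -0.44 ± 0.18. *Mrps12*, the protein of the decoding center, was at -0.37 ± 0.23, with control tumor 2 (284) below treated tumor 1 (349.8). *Mrps30*, placed in the large subunit despite its name, was at -0.37 ± 0.17. *Mrpl44*, related to double-stranded RNA nucleases, was at -0.25 ± 0.17. *Mrpl3*, next to the peptidyl transferase center, was at -0.13 ± 0.18, and *Mrpl45*, which sits by the inner membrane where new proteins emerge, was at -0.11 ± 0.20. The adjusted p-values of these members ran up to 0.803 by limma.

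Only 3 members had a positive log2 fold change. *Mrpl48*, a mitochondrion-specific protein of the large subunit, was at 501, 304, and 338 normalized counts in the controls and at 498, 478, and 468 after treatment. Control tumor 1 was level with the treated tumors, and the other controls were lower than all of them. Its log2 fold change was 0.37 ± 0.21 (95% interval -0.11 to 0.85, adjusted p = 0.405), and without control tumor 1 it was 0.58 with an adjusted p of 0.0252. *Mrpl47* and *Mrpl16*, both with bacterial counterparts in the large subunit, were at 0.10 and 0.06. *Mrps9*, *Mrps31*, and *Mrps17* of the small subunit were closest to 0 among the negative values, at -0.01, -0.03, and -0.04. The interval of *Mrps9* ran from -0.36 to 0.34, and for 53 of the 78 members the 95% interval lay inside a 2-fold change in either direction. The 3 paralogs of the bacterial S18 family sit in both subunits, *Mrps18a* in the large and *Mrps18b* and *Mrps18c* in the small one. *Mrps18b* was at -0.25, *Mrps18a* at -0.10, and *Mrps18c* at -0.06, with intervals that all included 0.

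Control tumor 3 had the highest value of the 6 tumors in 59 members (75.6%), against 24.3% of all genes tested. FF-10101–treated tumor 3 had the lowest value in 47 members (60.3%), against 18.2% of all genes, and treated tumor 2 in another 20. Control tumors 2 and 3 were both above all treated tumors in 52 members, against 25.7% of all genes. Control tumor 1 lay within the range of the treated tumors in 41 members and above it in 33, where 40.9% of all genes were within and 29.5% above, and it was the lowest of the controls in 51. Summed over the 78 genes, the normalized counts were 36263, 41189, and 51741 in control tumors 1, 2, and 3 and 36885, 30803, and 28781 in treated tumors 1, 2, and 3. The sums overlapped between groups, since treated tumor 1 was above control tumor 1. They made up 0.281% to 0.508% of all normalized counts of a tumor.

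The summed level of 9 proliferation markers was 8061, 12834, and 13966 in the controls and 9259, 6256, and 6439 after treatment, and all 9 were lower, with 6 at an unadjusted p under 0.05 and 1 (*Pcna*) not overlapping. Their median log2 fold change was -0.74, and -1.07 without control tumor 1, when limma called 7 of them lower. The summed level of 8 macrophage markers was 64600, 40146, and 38713 in the controls and 22831, 31519, and 32145 after treatment, and 6 of the 8 did not overlap between groups. All 8 macrophage markers were lower with all tumors, and 6 were without control tumor 1, when limma called 4. *Csf1r*, whose product FF-10101 inhibits, was at 8961, 4388, and 3568 in the controls and at 3295, 5006, and 5024 after treatment, so its mRNA overlapped. Skeletal muscle, a tissue rich in mitochondria, contributed 2913 to 10952 normalized counts over 6 markers, with the lowest sum in treated tumor 1 and the highest in treated tumor 2. Markers of several other cell types were mostly higher. Of the 8 mesenchymal and fibrosarcoma markers, 7 were higher and 1 lower, and 2 did not overlap, both higher. Their median log2 fold change was 0.58, and 0.94 without control tumor 1, when limma called 4 of them higher. The summed level of 5 neutrophil markers was 1091, 366, and 295 in the controls and 1357, 1304, and 1529 after treatment, with *Ly6g* at or near 0, and 3 of the 4 tested did not overlap. The summed level of 4 endothelial markers was 4150.3, 1680.0, and 1191 in the controls and 4128, 4568, and 4784 after treatment, with overlap in all 4. All 5 T cell and all 3 NK cell markers had positive log2 fold changes, with medians of 0.41 and 0.85 and overlap in each. These medians were 0.94 and 1.44 without control tumor 1. Then limma called higher 1 of the 5 T cell markers, all 3 NK cell markers, all 4 endothelial markers, and all 4 neutrophil markers tested. In that setting limma called 9.88% of all genes lower and 12% higher. With all tumors, 7.49% of all genes were lower at an unadjusted p under 0.05 in limma. Of all genes, 9.37% did not overlap as lower and 10.9% as higher. The 11.1% of proliferation markers that did not overlap is near that share. The part of these cell types in the difference of the mitochondrial ribosomal protein genes was not tested.

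**Figure D3:**
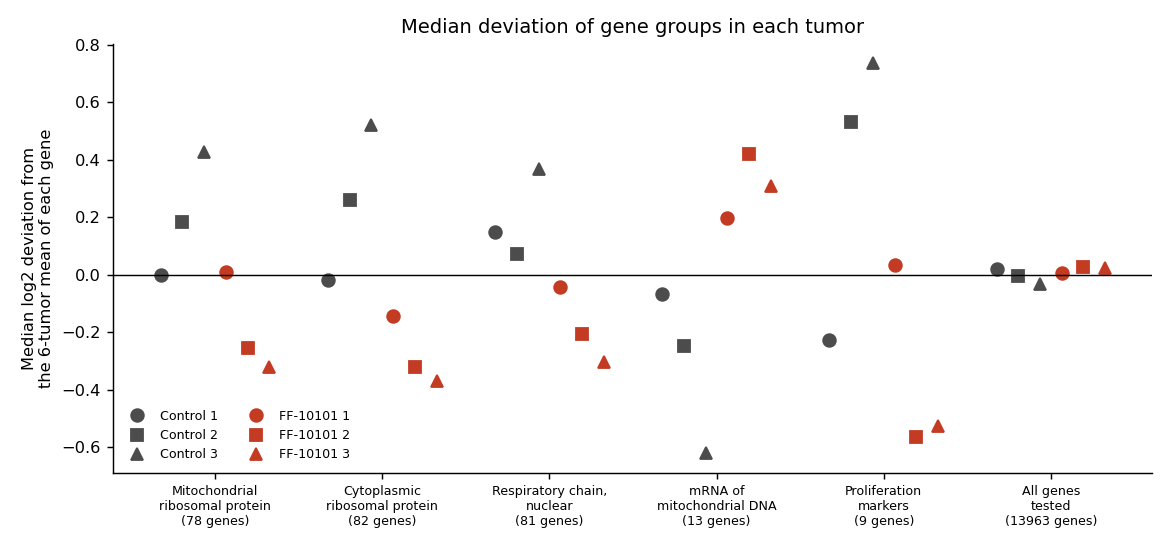
The median, over the genes of a group, of each gene's log2 deviation from its mean over the 6 tumors, for control (gray) and FF-10101–treated tumors (red), 1 symbol per tumor. For the mitochondrial ribosomal protein genes, control tumor 3 is highest at 0.43, treated tumor 3 lowest at -0.32, and control tumor 1 and treated tumor 1 sit together near 0. The mRNAs of mitochondrial DNA run the other way.

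Although the assembled ribosome holds most of its proteins in single copy, the mRNA levels of the members differed widely. Per kilobase of transcript, the highest level was 31.7 times the lowest, with a median of 366 normalized counts per kilobase. The highest were *Mrpl33* at 1937, *Mrps21* at 1684, and *Mrpl52* at 1664 normalized counts per kilobase. The lowest were *Mrpl19* at 61.2, *Mrps35* at 66.8, and *Mrpl35* at 69.3. Transcript lengths come from an older annotation than the authors used, and the 3 lowest have long annotated transcripts. Per kilobase of coding sequence, 2 of the 3 highest stayed among the 3 highest and 0 of the 3 lowest among the 3 lowest. Of these, *Mrpl52* and *Mrps35* did not overlap between groups. *Mrpl52* was at 779, 838, and 905 normalized counts in the controls and at 681, 637, and 558 after treatment, with a log2 fold change of -0.43 ± 0.15 and an adjusted p of 0.252. *Mrps35* was at 256, 291, and 419 against 251, 227, and 225 (-0.43 ± 0.22, adjusted p = 0.360). *Mrpl33*, the smallest protein of the family, was at -0.13 ± 0.19. The median log2 fold change was -0.37 in the less abundant 39 members and -0.43 in the more abundant 39. A tie between level and difference was not tested.

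Promoters of genes for mitochondrial proteins are known for binding sites of nuclear respiratory factor 1 (NRF-1), the ETS-family factor GABP, and YY1, so the promoters were searched for their motifs. RefSeq gave promoters on GRCm38.p6 for 69 of the 78 members, each 300 bases long, from 250 bases before to 50 after a start. The letters searched, on both strands, were CCGGAAG for GABP, CACGTG for the E-box, and GGGCGG for SP1. For NRF-1 they were GCGCA, any base, and GCGC, and for YY1 they were AA, any base, ATGG, and CGGC, each without a gap. The members' promoters held the GABP, NRF-1, and YY1 motifs more often than other promoters, a difference that was not tested. They were also richer in GC, with a median of 58.7% beside 52.7% for all promoters. The GABP motif was present in 26 members (37.7%), beside 19.4% of the 10257 tested protein-coding genes with a promoter and 9.93% of all 27025 genes in the promoter table. The NRF-1 motif was in 13 members (18.8%, beside 11% and 5.19%), and the YY1 motif in 7 (10.1%, beside 2.69% and 1.17%). At least 1 of these 3 was found in 39 members (56.5%), beside 29.7% and 14.8%. The E-box was in 5 members (7.25%, beside 11.4% and 8.09%), and the SP1 motif in 34 (49.3%, beside 67.3% and 38.2%). The median log2 fold change was -0.37 with and -0.35 without a GABP motif, and -0.25 with and -0.37 without an NRF-1 motif. It was -0.23 with and -0.36 without a YY1 motif, -0.33 with and -0.36 without an E-box, and -0.44 with and -0.26 without an SP1 motif. A match describes the letters of the window and not a bound site.

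**Figure D4:**
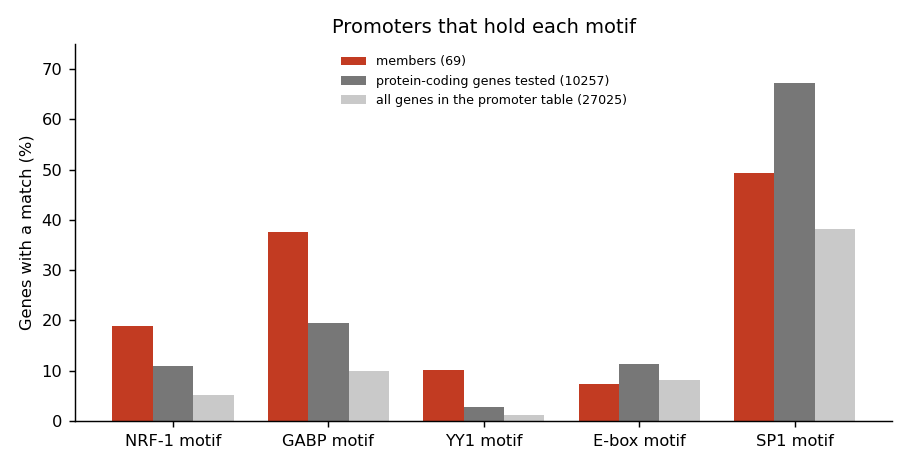
Percentage of genes whose 300-base promoter holds at least 1 match to each motif, for 69 mitochondrial ribosomal protein genes (red), the 10257 tested protein-coding genes (dark gray), and all 27025 genes of the promoter table (light gray). The GABP, NRF-1, and YY1 bars of the members are above both others, and the E-box bar is below both.

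Promoters of 4 members are shown from 250 bases before to 30 after the start (GRCm38.p6, RefSeq), with matches to the NRF-1 and GABP motifs in capitals. *Mrpl57*, *Mrpl53*, and *Mrpl12* had the 3 largest differences, and *Mrpl45* had the most NRF-1 matches and a log2 fold change of -0.11.
Mrpl57 (chr14:57825989-57826268, + strand): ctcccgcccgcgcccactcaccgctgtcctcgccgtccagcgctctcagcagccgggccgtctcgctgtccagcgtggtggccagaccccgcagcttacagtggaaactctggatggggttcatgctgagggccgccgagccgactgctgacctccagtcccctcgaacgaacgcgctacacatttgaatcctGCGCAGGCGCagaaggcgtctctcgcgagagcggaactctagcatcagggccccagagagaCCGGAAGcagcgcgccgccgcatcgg
Mrpl53 (chr6:83108858-83109137, + strand): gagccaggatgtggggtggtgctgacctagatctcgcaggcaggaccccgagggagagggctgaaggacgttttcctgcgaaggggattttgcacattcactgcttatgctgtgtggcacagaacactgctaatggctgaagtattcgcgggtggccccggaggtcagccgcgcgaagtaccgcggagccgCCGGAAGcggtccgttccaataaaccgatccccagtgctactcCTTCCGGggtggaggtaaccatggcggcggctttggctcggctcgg
Mrpl12 (chr11:120484387-120484666, + strand): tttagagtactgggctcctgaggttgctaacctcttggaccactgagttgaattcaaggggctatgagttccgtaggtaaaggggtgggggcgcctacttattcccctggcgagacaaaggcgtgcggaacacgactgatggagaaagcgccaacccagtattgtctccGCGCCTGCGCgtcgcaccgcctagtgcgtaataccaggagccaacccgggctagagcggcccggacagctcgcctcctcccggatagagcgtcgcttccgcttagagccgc
Mrpl45 (chr11:97315466-97315745, + strand): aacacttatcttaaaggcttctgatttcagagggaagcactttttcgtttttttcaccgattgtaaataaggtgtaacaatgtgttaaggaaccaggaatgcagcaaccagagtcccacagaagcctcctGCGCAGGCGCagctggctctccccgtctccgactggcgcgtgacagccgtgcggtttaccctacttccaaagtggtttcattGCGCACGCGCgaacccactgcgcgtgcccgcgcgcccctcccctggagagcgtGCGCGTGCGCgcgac
The *Mrpl57* promoter holds an NRF-1 motif whose first base lies 57 bases before the start and a GABP motif from base 5 after it. The *Mrpl53* promoter holds 2 GABP motifs, 59 and 16 bases before the start on opposite strands, and the *Mrpl12* promoter an NRF-1 motif 81 bases before it. The *Mrpl45* promoter holds 3 NRF-1 motifs, and its levels were 520.1, 402, and 609 in the controls and 521, 401, and 484 after treatment. The groups overlapped for this gene. Among the members, *Mrps11* and *Mrpl46* share a promoter region on chromosome 7, with starts 42 bases apart on opposite strands. Both were lower without overlap, with *Mrps11* at 247, 243, and 312 in the controls and at 239.8, 179, and 184 after treatment and *Mrpl46* at 206, 206, and 231 against 169, 203, and 179.6. Their log2 fold changes were -0.41 ± 0.20 and -0.22 ± 0.17, with adjusted p-values of 0.346 and 0.545 by limma.

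Some members share sequence with other genes, and their counts are less certain. In 35 of the 78, more than 10% of the 31-base words of the transcripts also occur in transcripts of another gene on either strand. In the other 43, 42 had a negative log2 fold change and the median was -0.37. All words of *Mrpl53* also occur in a transcript of the predicted gene *Gm42688*, which held 16.9 to 54.4 normalized counts per tumor. *Mrpl23* shares 53.0% of its words with the pseudogene *Mrpl23-ps1*, and the pseudogene held more of the reads, with 285 to 460 normalized counts beside 59.6 to 136 for the gene. The log2 fold change was -0.70 ± 0.29 for *Mrpl23* alone and -0.31 for the sum of both. *Mrps34* and *Mrps25* share 55.6% and 74.6% of their words with genes on the opposite strand, *Mapk8ip3* and *Nr2c2*. As the sources do not state whether the library keeps the strand, reads from the shared stretches of these pairs cannot be told apart. Their log2 fold changes were -0.43 ± 0.17 and -0.44 ± 0.20.

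Other nuclear genes of mitochondrial translation were also mostly lower. All 5 proteins of this ribosome with other symbols (*Dap3*, *Ptcd3*, *Chchd1*, *Aurkaip1*, and *Gadd45gip1*) had negative log2 fold changes, with a median of -0.43. *Aurkaip1* was the only one that did not overlap, at 801, 754, and 914 in the controls and at 666, 589, and 579.5 after treatment (log2 fold change -0.43 ± 0.15, adjusted p = 0.252). *Gadd45gip1* was at 662, 940.0, and 1299 against 814, 484, and 533, again with control tumor 1 among the treated tumors (-0.65 ± 0.29, adjusted p = 0.318; 0.0358 without control tumor 1). Of the assembly factors, 22 of 26 were lower with a median of -0.26, and 8 did not overlap as lower, where 9.37% of all genes did. *Nsun4*, an rRNA methyltransferase, was the only one that did not overlap as higher, at 117, 139, and 121 against 167, 161, and 158 (0.37 ± 0.18, adjusted p = 0.358). *Noa1*, a GTPase that helps to build the small subunit, had the smallest p of these, at 351, 444, and 514 against 321, 256, and 291 (-0.58 ± 0.19, adjusted p = 0.244; 0.0198 without control tumor 1), followed by *Rcc1l* at -0.49 ± 0.24 with overlap. Of the translation factors, 14 of 16 were lower with a median of -0.15. *Tsfm*, the exchange factor of the elongation factor Tu, was at -0.55 ± 0.23 with overlapping groups. Of the aminoacyl-tRNA synthetases of mitochondria, 19 of 22 were lower with a median of -0.16, with *Tars2* and *Nars2* both at -0.47. Of the factors of mitochondrial transcription and RNA handling, 17 of 23 were lower, with a median of -0.07. The median of this last list was -0.21 without control tumor 1 and -0.20 with length and GC trends removed, which also took the translation factors to -0.30 and the synthetases to -0.27. Among the transcription and RNA factors *Tefm*, the elongation factor of the mitochondrial RNA polymerase, was at -0.58 ± 0.20 without overlap, and *Mterf1b*, at 1.09 to 11.3 normalized counts in the controls and 12.4 to 20.6 after treatment, at 2.26 ± 0.82. No gene of these lists passed an adjusted p of 0.05 in limma with all 6 tumors. Without control tumor 1, limma called lower 2 of the 5 other ribosomal proteins, 1 assembly factor, 2 translation factors, 1 synthetase, and 3 of the transcription and RNA factors, where 9.88% of all genes were called lower, and it called *Mterf1b* higher. The counts for the last 4 lists are near or below that share.

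The RNAs made from mitochondrial DNA were higher where the ribosomal protein mRNAs were lower. The 12S rRNA gene *mt-Rnr1* was at 4271, 1856, and 1820.3 normalized counts in the controls and at 5116, 4795, and 5144 after treatment. The groups did not overlap, although control tumor 1 was far above the other controls, and the log2 fold change was 1.04 ± 0.32 with an adjusted p of 0.230. The 16S rRNA gene *mt-Rnr2* was at 0.87 ± 0.26 with an adjusted p of 0.229, also without overlap. Both rRNAs together held only 0.0437% to 0.113% of all normalized counts of a tumor. How evenly the libraries kept rRNA was not tested. Of the 13 protein-coding genes of mitochondrial DNA, 11 had positive log2 fold changes, with a median of 0.64. In 9 the groups did not overlap, all of them higher, where 10.9% of all genes did so. Levels are given per gene, and which of these genes share an mRNA was not examined. Of these, *mt-Atp8* was at 3968, 3694, and 2698 in the controls and at 5571, 6684, and 6461 after treatment (0.87 ± 0.19, adjusted p = 0.229), and *mt-Nd6* was at 0.78 ± 0.18 with the same adjusted p. The exceptions were *mt-Atp6* at -0.30 and *mt-Nd3* at -0.12. Without control tumor 1 limma called both rRNAs and 9 of the 13 protein-coding genes higher at an adjusted p of 0.05, where 12% of all genes were.

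**Figure D5:**
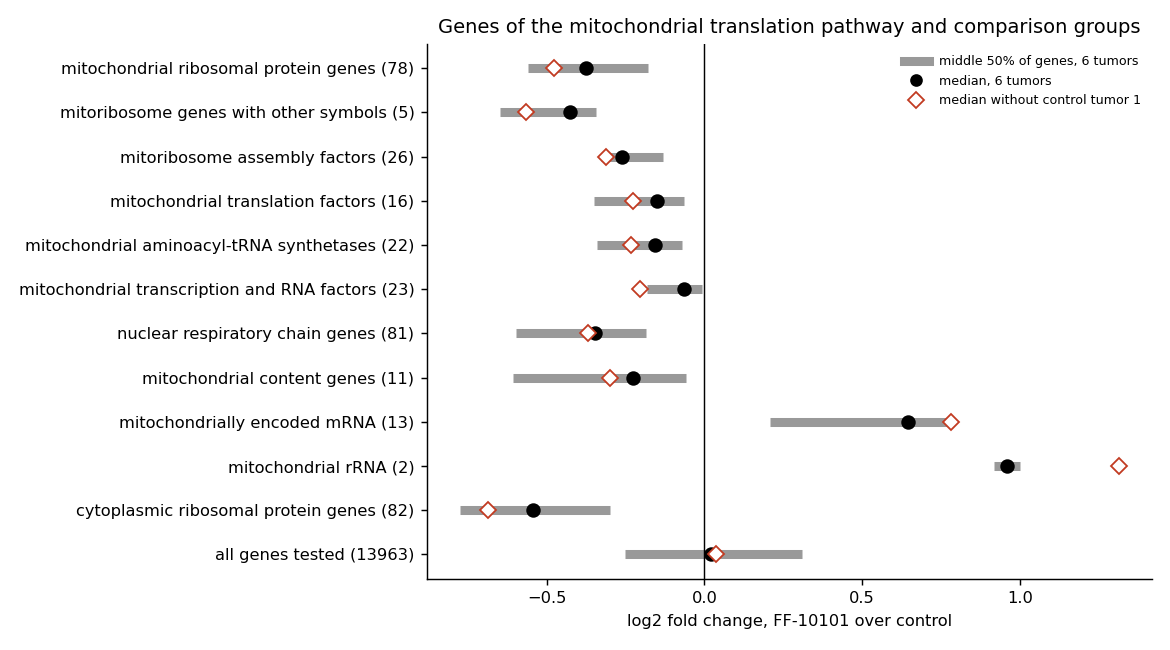
Log2 fold change (FF-10101 over control) of the mitochondrial ribosomal protein genes, of further genes of mitochondrial translation, and of comparison groups, with the number of genes tested in parentheses. Gray bars span the middle 50% of genes, black points are medians over all 6 tumors, and open diamonds are medians without control tumor 1. The nuclear lists lie left of 0 and the RNAs of mitochondrial DNA right of it.

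The lower levels were shared with the ribosome of the cytoplasm and with the respiratory chain. Of 82 cytoplasmic ribosomal protein genes tested, 77 were lower with a median log2 fold change of -0.54, and 55 did not overlap as lower and 1 as higher, where 9.37% and 10.9% of all genes did. Without control tumor 1, limma called 51 of them lower and 1 higher at an adjusted p of 0.05, beside 0 with all tumors. In that setting 9.88% of all genes were called lower and 12% higher. The summed level of the cytoplasmic ribosomal protein genes was 6.52%, 8.98%, and 10.9% of all normalized counts in the controls and 6.38%, 5.87%, and 5.66% after treatment, with no overlap. Of 81 nuclear respiratory chain genes, 70 were lower with a median of -0.35, and 33 did not overlap as lower and 1 as higher. Of these 81, limma called 0 with all tumors. Without control tumor 1 it called 26 lower and 0 higher, where 9.88% and 12% of all genes were. Of 11 genes often read as measures of mitochondrial content, 9 were lower with a median of -0.23, but the citrate synthase gene *Cs* and the channel gene *Vdac1* were at 0.09 and -0.06. The chaperone gene *Hspa9* was the only one that did not overlap as higher, at 0.26 ± 0.14 with an adjusted p of 0.398, and *Phb2* the only one that did not overlap as lower. These counts, 1 of 11 each way, are near the 10.9% and 9.37% of all genes. *Phb2*, a prohibitin of the inner membrane, was at -0.69 ± 0.20, and *Hspe1*, a chaperonin, at -0.78 ± 0.28 with overlap. Their adjusted p-values were 0.0192 and 0.0121 without control tumor 1. Of the 9 regulators listed for these genes, *Ppargc1a* had too few reads to test, 5 were lower, and 3 were higher, with log2 fold changes from -0.34 to 0.24. *Esrra* and *Gabpb1*, with the smallest p-values, were at -0.34 ± 0.16 and -0.25 ± 0.16 without overlap, and *Nrf1*, which encodes NRF-1, was at -0.30 ± 0.20 with overlap. The adjusted p-values of these 3 were 0.333, 0.460, and 0.471 by limma. Whether the difference of the mitochondrial ribosomal protein genes departs from that of the cytoplasmic ones was not tested.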

How the data were processed

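RNA of 3 control and 3 FF-10101–treated MCA205 tumors was made into libraries with the NEBNext Ultra II RNA kit and sequenced on a NovaSeq instrument. Per the submitters' notes and methods, the authors used fastp 0.19.5, Salmon 1.5.1 with the GENCODE vM27 annotation, and DESeq2 1.22.1. The deposited table gives a log2 value for each gene in every tumor, by a transformation that the sources used here do not name. The values were read as the output of the variance-stabilizing formula in the package that the authors used, DESeq2. Reversing it returned whole reads in 100% of cases (tolerance 1e-06), with 1 scaling factor per tumor. Salmon divides reads between similar transcripts by estimation, so genes with close copies are uncertain.

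Normalized counts were tested as log2(normalized count + 1) with limma 3.58.1 in R 4.3.3 (lmFit, eBayes with a trend, the group as the only term) on the 13963 genes averaging 10 or more, adjusted together by Benjamini-Hochberg. Fold changes on this scale understate those of low genes. SE and 95% intervals are limma's. Gene symbols came from a table of mouse gene names, which matched 51484 identifiers, and gene types and lengths from GENCODE vM21. That annotation belongs to GRCm38 and not to the build of the deposited table, so coordinates are given only for RefSeq promoters. Tables and searches were made with Python, pandas, and scipy. The labels name replicate tumors but not their mice, so p-values measure the spread between these tumors. The fitting script was tested on simulated reads.

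The members and gene lists were chosen with earlier results of these data known, and lists are described by counts and medians with no test of their own. Members named are the 6 with the largest and the 6 with the smallest log2 fold change, the 6 smallest p-values (none passed), the 3 highest and lowest levels per kilobase, the *Mrps18* paralogs, and members with a known part of their own. From each list the 2 genes with the smallest p are named, except 1 gene that is not reported here. *Mrpl23*, *Mrpl46*, *Mrps11*, *Mrps22*, *Mrps25*, and *Mrps34*, and further list genes, were added after their values were seen, to show shared sequence, a shared promoter, or the effect of 1 tumor. Alternatives were other pseudocounts (0.5 and 10), minimums, scalings, tests, array weights, a replicate block, removal of length and GC trends, and each tumor left out in turn.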

Additional observations from a re-analysis of the deposited data

How the results depend on the processing

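The negative median of the mitochondrial ribosomal protein genes kept its sign under all 21 alternatives, from -0.28 (without control tumor 3) to -0.48 (without FF-10101–treated tumor 1). Scaling to total reads or to the 75th percentile gave -0.35 and -0.36, with 74 members lower in each, and quantile normalization -0.38 with 75. The count of members past an adjusted p of 0.05 stayed at 0 except in 3 settings: 51 with array weights (50 lower, 8365 genes in all), 28 without control tumor 1 (3051 genes), and 34 without control tumor 1 and with length and GC trends removed (33 lower, 3580 genes, all-gene median -0.09). The last setting and the block combined with length and GC trends were chosen after seeing the data. Leaving out each tumor in turn gave 0 to 28 members and 1 to 3051 genes in all, the 1 without control tumor 2 and 3 without control tumor 3 or treated tumor 2. Array weights rest mostly on 2 tumors, control tumor 2 (5.39) and treated tumor 2 (8.08). Over all genes, the count of 6 became 17 with no minimum, 3 with a minimum mean of 50, and 1 with the replicate block, with or without the length and GC trend. The block left 0 members called and 8 at an unadjusted p of 0.05. Same-numbered tumors did not deviate together (correlations -0.29, -0.04, and -0.28), so the numbers were not taken as pairs. Of the 34 named members, 11 changed sign somewhere, all with a main log2 fold change between -0.13 and 0.10. With length and GC trends removed, with or without the block, *Mrpl33* was at 0.0016, *Mrps9* at 0.00068, *Mrps17* at 0.046, *Mrps18c* at 0.049, *Mrps18a* at 0.10, and *Mrpl47* at -0.092; with control tumor 1 also left out, *Mrps17* was at 0.16, *Mrps18c* at 0.14, *Mrps18a* at 0.11, and *Mrpl47* at -0.16. With array weights *Mrpl3* was at 0.093, *Mrpl35* at 0.17, *Mrps17* at 0.15, and *Mrps9* at 0.011. *Mrps9* was at 0.0096 with 75th percentile scaling and at 0.017 with scaling to total reads. With 1 tumor left out, the values ran from -0.010 to 0.12 for *Mrpl16*, -0.27 to 0.018 for *Mrpl33*, -0.24 to 0.073 for *Mrpl35*, -0.27 to 0.027 for *Mrpl45*, -0.18 to 0.10 for *Mrps17*, -0.19 to 0.043 for *Mrps18c*, -0.14 to 0.054 for *Mrps31*, and -0.056 to 0.042 for *Mrps9*.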
